A study of Mus musculus with 2 samples.

Results

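Mitosis genes are the 42 mouse genes followed here: the genes whose products carry a cell from chromosome condensation to the splitting of its cytoplasm. They were chosen by name and not by a threshold on their values, and all 42 were present among the 32285 genes of the deposited matrix. They fell into 6 groups by role: 8 kinases, cyclins and the passenger protein Birc5, 6 genes of chromosome structure, 7 of the kinetochore, 7 of the spindle checkpoint and mitotic exit, 9 of the spindle and its motors, and 5 of cytokinesis.

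A resting T cell is out of the cell cycle. When its receptor is engaged it grows, replicates its DNA (S phase) and then divides, and mitosis is driven by the kinase Cdk1 with its cyclins, which are destroyed when the anaphase-promoting complex lets the chromosomes part. Most genes of mitosis are low outside cycling cells and are switched on together late in the cycle, in part through promoter elements named the cell cycle homology region (CHR) and the CCAAT box, while many genes of S phase are switched on earlier through E2F factors.

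The cells were CD8+ T cells, the cytotoxic T cells of the immune system, taken from the spleens of wild-type mice (strain, age and number not given in the sources used here). They were kept for 30 h either rested or on plates coated with the class I molecule H-2Db loaded with a peptide. The peptide called M9C was given at 20, 2 and 0.2 pmol and the peptide called L6F at 80 and 20 pmol. Cells of each culture were marked with a hashtag (a barcoded antibody), a propidium iodide sort took the living cells (with a smaller number of rested than of stimulated cells per culture), and all went into 1 lane of a droplet platform. Each of the 6 conditions was 1 culture, so there is no replicate error and no test: every interval below is a 95% interval of counting error only, and a difference between conditions is a difference between those cultures.

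After filtering there were 755 rested cells and between 1589 and 2477 in each stimulated condition. Rested cells held a median of 1056 unique molecular identifiers (UMIs, counted RNA molecules) and the stimulated conditions 6050 to 7114. Of the 1583 barcodes called as rested, 52.3% were filtered out, all of them with fewer than 500 genes, against 1.43% to 3.71% of the stimulated. The 6 markers of CD8 T cells (Cd3d, Cd3e, Cd3g, Cd8a, Cd8b1 and Trac) were detected in every condition, and 3 or more of their UMIs were seen in 78.3% of rested cells and in 96.7% to 97.8% of stimulated cells. Cd4, which marks the other main T cell class, was at 0 in 4 of the 6 conditions. Rested cells also held RNA of other blood cells: the marker lists of macrophages or monocytes reached 150.2 CPM (UMIs scaled to a common total per condition), of erythroid cells 159 CPM, of NK cells 37.0 CPM and of gamma-delta T cells 419 CPM, against at most 26.2, 41.7, 5.08 and 104 CPM in stimulated cells.

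Promoter sequences of 36 of the 42 members were in the RefSeq promoter table used (GRCm38.p6, a window of 300 bases around each gene's start). The core letters of the CHR, TTTGAA, stood on either strand in 29 of these 36 genes, and in 31 of their 38 promoter windows (81.6%), against 17.9% of all 32851 windows. The letters CCAAT stood in 30 of the 38 windows (78.9%), against 37.4% of all, and both motifs in 27 (71.1%), against 6.95% of all. In 25 members a TTTGAA began within 50 bases of the start site, which was not counted over all genes. The related letters TTCGAA were found in 3 members (8.33%, against 1.80% of all genes). E2F letters (TTTCCCGC or TTTGGCGC) were found in 2 (5.56%, against 1.80%). Of 26 S phase genes, 21 had a promoter in the table, and of these 2 held TTTGAA (9.52%, against 20.2% of all genes), 8 held E2F letters (38.1%, against 1.80%) and 15 held CCAAT (71.4%, against 41.1% of all genes and 77.8% of members). TTTGAA and E2F letters thus set members and S phase genes apart, and CCAAT did not. Of 104 other mitosis genes with a promoter, listed further on, 33.7% held TTTGAA, 54.8% CCAAT and 12.5% E2F letters. A match is a description of letters and does not show that a factor binds.

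The 120 bases before the start (the first listed, for the members with more than 1) are shown for the member with the most UMIs among those that held both motifs whole within them, which members of 4 of the 6 role groups did, because these are the letters the members share beyond their function. All are 5′ to 3′ on the gene's strand, from GRCm38.p6 of RefSeq, with TTTGAA and CCAAT, or the same on the other strand (TTCAAA and ATTGG), in capitals. The stretches of Cdk1, the kinase that drives mitosis (chr10:69352913-69353032, minus strand), Top2a, the enzyme that untangles replicated DNA (chr11:99024190-99024309, minus strand), Ube2c, the enzyme that supplies the anaphase-promoting complex with ubiquitin (chr2:164769809-164769928, plus strand), and Kif11, the motor that pushes the spindle poles apart (chr19:37376262-37376381, plus strand), read:
Cdk1: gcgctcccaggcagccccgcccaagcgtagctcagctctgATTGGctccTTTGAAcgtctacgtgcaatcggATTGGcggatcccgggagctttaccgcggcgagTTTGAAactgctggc
Top2a: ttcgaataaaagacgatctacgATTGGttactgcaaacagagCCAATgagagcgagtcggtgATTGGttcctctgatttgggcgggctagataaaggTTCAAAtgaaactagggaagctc
Ube2c: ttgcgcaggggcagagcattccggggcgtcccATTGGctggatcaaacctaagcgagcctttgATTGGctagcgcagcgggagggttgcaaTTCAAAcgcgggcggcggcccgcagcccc
Kif11: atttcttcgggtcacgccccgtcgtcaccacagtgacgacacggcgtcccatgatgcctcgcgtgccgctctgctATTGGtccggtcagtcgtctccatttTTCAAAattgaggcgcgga
In these 4 promoters the TTTGAA nearest to the start began 15, 23, 29 and 19 bases before it, with CCAAT letters further upstream. For contrast, Ccnb1, cyclin B1 (chr13:100786487-100786606, minus strand), held CCAAT letters alone, Birc5, the survivin subunit of the chromosomal passenger complex (chr11:117849117-117849236, plus strand), held neither motif, and Mcm6, a subunit of the replicative helicase and an S phase gene (chr1:128359706-128359825, minus strand), held E2F letters, here also in capitals, and CCAAT letters:
Ccnb1: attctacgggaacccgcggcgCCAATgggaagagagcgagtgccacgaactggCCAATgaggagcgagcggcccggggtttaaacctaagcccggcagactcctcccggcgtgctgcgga
Birc5: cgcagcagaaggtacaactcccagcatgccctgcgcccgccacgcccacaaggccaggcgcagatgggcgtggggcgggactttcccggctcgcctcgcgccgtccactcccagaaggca
Mcm6: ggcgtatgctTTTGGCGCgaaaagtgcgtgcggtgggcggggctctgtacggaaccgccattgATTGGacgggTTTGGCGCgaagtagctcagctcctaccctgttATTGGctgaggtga
No match in a window says only that these letters are not there.

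Against rested cells, the mitosis genes were higher in all 5 stimulated conditions. Their summed level was 1451 CPM in rested cells (95% interval 1374 to 1531), 3980, 3737 and 3930 CPM at 20, 2 and 0.2 pmol M9C, and 4420 and 4303 CPM at 80 and 20 pmol L6F. All stimulated conditions thus lay far above the rested one, and both L6F conditions above the 3 M9C conditions. A member was called higher or lower where its CPM ratio reached 2-fold and the interval of the ratio excluded equality, and all 42 members passed the filter of 10 CPM in either condition. At 20 pmol M9C 34 of 42 members were at least 2-fold higher than in rested cells and none was lower, where 16.9% of the 7779 genes measured were called higher and 16% lower. At 2 pmol M9C 33 were higher (16.7% of all genes, with 16.4% lower), and at 0.2 pmol M9C 33 (16.5%, with 16.3% lower). At 80 pmol L6F 36 were higher (13.5%, with 13.3% lower) and at 20 pmol L6F 37 (14.3%, with 14% lower). None of the 42 was called lower in any condition. The median log2 ratio over the members ran from 1.52 to 1.76, and over all genes measured from 0.07 to 0.10. These 5 comparisons share the rested cells as their control.

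Counted per cell, the difference was larger, because a stimulated cell held 5.13 to 5.88 times as many UMIs in the mean. A rested cell held 1.77 member UMIs in the mean and a stimulated cell 26.3 to 28.1. All 42 members were at least 2-fold higher per cell in each condition, but so were 90.7%, 91% and 91.5% of all genes at 20, 2 and 0.2 pmol M9C and 91.8% at both 80 and 20 pmol L6F. The members' median log2 ratio per cell was 4.13 at 20 pmol M9C, against 2.61 over all genes.

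The rested level rests on few molecules and few cells. The members together had 1333 UMIs in rested cells, and 9 members had fewer than 10, such as Kif20a with 4, Ttk and Anln with 5 each, and Bub1 and Ckap2 with 7 each. The direction against rested cells also depends on which rested cells are kept: with 1000 or more genes required, 47 rested cells remained, and there 0 of 42 members were at least 2-fold higher at 20 pmol M9C and the summed level was lower than in those rested cells (log2 ratio −0.52). With the top hashtag at 50 counts and 95% or more, 19 rested cells remained, 0 members were called higher and the summed log2 ratio was −0.06. Both stricter choices kept deep rested cells, with median UMIs of 2478 and 2117 against 1056 in all rested cells. Deep rested cells were often rich in member UMIs. Of the 35 rested cells of 2000 to 3000 UMIs 12 held 10 or more, and of the 14 deeper ones 13 did. Of all 27 rested cells with so many, 9 had no CD8 T marker UMI. The same counts were not taken over all genes at either stricter choice. With hashtags called by HTODemux (850 rested cells), 27 members were called higher at 20 pmol M9C. Cdk1, Ccnb2, Smc2, Cenpf and Ttk then lost the call in all 5 conditions, and 10 of the 42 ratios at 20 pmol M9C fell by over 1.5 times. Without cells above 3 times the median UMIs of their condition, 30 ratios were higher by over 1.5 times and 39 members were called.

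**Figure D1:**
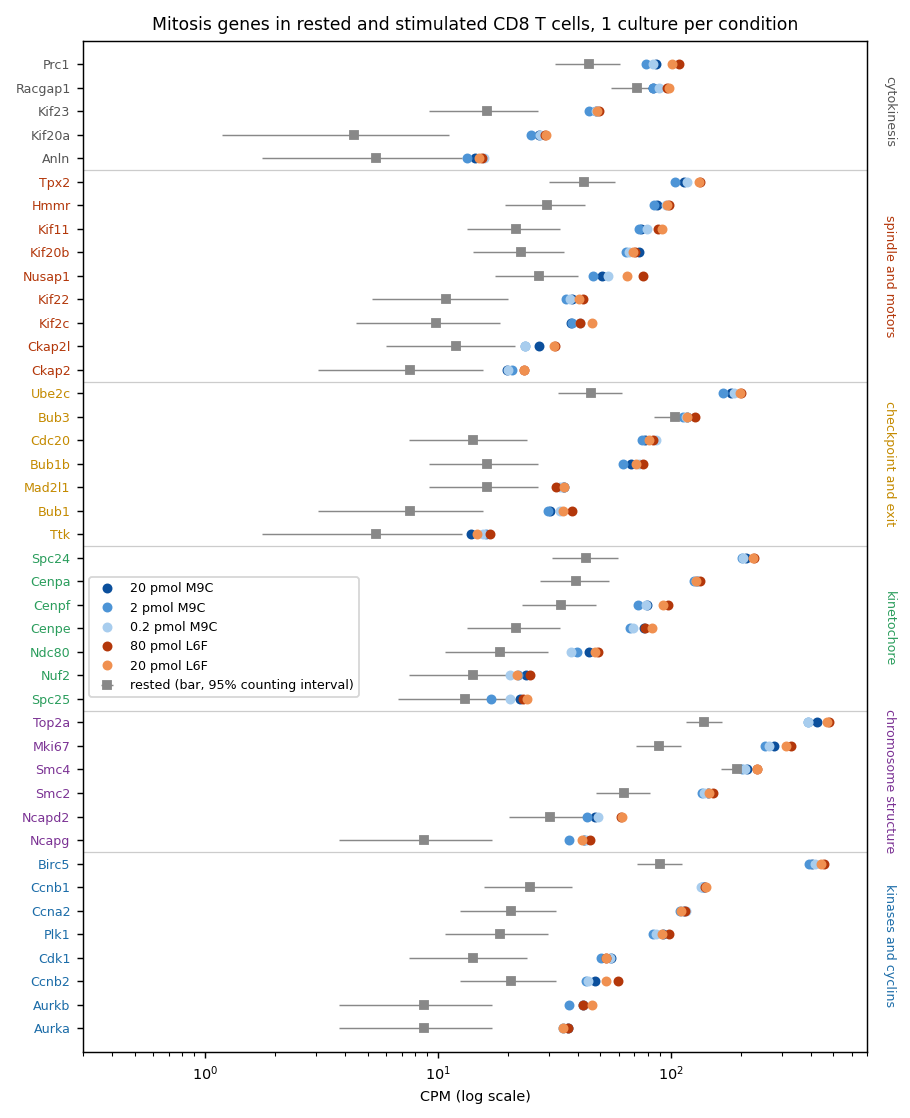
CPM (log axis) of each of the 42 members in the 6 conditions, grouped by role. Grey squares are rested cells with their 95% counting interval and coloured points are the stimulated conditions, for which intervals are narrower than those of rested cells. Most members stand well to the right of the rested value, while Smc4, Bub3 and Racgap1 lie next to it.

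The kinases and cyclins were the group with the highest median ratio. All 8 were at least 2-fold higher in each of the 5 stimulated conditions, with a median log2 ratio of 2.22 at 20 pmol M9C. With hashtags called by HTODemux in place of the main rule, Cdk1 (1.91-fold at 20 pmol M9C, 1.34 to 2.80) and Ccnb2 (1.52-fold, 1.08 to 2.20) fell short in all 5. Birc5, the passenger complex subunit that brings Aurora B to the centromere, had the most UMIs of the group. It was at 90.3 CPM in rested cells (71.9 to 112), at 405, 395 and 416 CPM at 20, 2 and 0.2 pmol M9C, and at 455 and 442 CPM at 80 and 20 pmol L6F. Its ratio at 20 pmol M9C to rested cells was 4.49-fold (3.61 to 5.64). Ccnb1, the cyclin that Cdk1 needs to start mitosis, was at 25.0 CPM in rested cells, at 140, 136 and 135 CPM at 20, 2 and 0.2 pmol M9C, and at 140 and 143 CPM at 80 and 20 pmol L6F. That is the highest ratio of the group at 20 pmol M9C, 5.59-fold (3.71 to 8.84), and the stimulated values differ little among themselves. Ccnb2, a second B-type cyclin, had the lowest ratio of the group, 2.29-fold (1.45 to 3.83). It stood at 20.7 CPM in rested cells, 47.4, 43.5 and 44.2 CPM at 20, 2 and 0.2 pmol M9C, and 59.8 and 52.8 CPM at 80 and 20 pmol L6F. Cdk1 itself was at 14.1 CPM when rested and between 50.3 and 55.4 CPM when stimulated. Ccna2, the cyclin of S phase and mitotic entry, was at 20.7 CPM in rested cells against 110 to 117 CPM. The Polo kinase Plk1 was at 18.5 CPM against 84.5 to 98.4 CPM, Aurka, the spindle pole Aurora kinase, at 8.71 against 34.4 to 36.2 CPM, and Aurkb, the Aurora kinase of the centromere and midzone, at 8.71 against 36.8 to 46.0 CPM.

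Genes of chromosome structure split in their response. Of the 6, 4 were at least 2-fold higher at 20 pmol M9C. Top2a had the most UMIs: 139 CPM in rested cells, 426, 389 and 390 CPM at 20, 2 and 0.2 pmol M9C, and 482 and 469 CPM at 80 and 20 pmol L6F. Its ratio at 20 pmol M9C was 3.06-fold (2.57 to 3.68). Ncapg, a subunit of condensin I, the ring that compacts mitotic chromosomes, had the highest ratio. It was at 8.71 CPM in rested cells, at 42.5, 36.8 and 43.2 CPM at 20, 2 and 0.2 pmol M9C, and at 45.1 and 41.7 CPM at 80 and 20 pmol L6F, and its ratio at 20 pmol M9C was 4.88-fold (2.46 to 11.4), or 2.65-fold with HTODemux calls. Smc4, a core subunit of both condensins, was almost level. It stood at 193 CPM in rested cells (165 to 223), at 212, 203 and 209 CPM at 20, 2 and 0.2 pmol M9C, and at 236 and 234 CPM at 80 and 20 pmol L6F, so that the ratio at 20 pmol M9C was 1.10-fold and its interval (0.946 to 1.29) held equality. Its partner Smc2 was at 63.1 CPM in rested cells against 137 to 153 CPM. Mki67, the Ki-67 protein that coats mitotic chromosomes and serves as a marker of cycling cells, was at 89.2 CPM against 255 to 330 CPM. Ncapd2, which like Ncapg is a condensin I subunit that condensin II lacks, was at 30.5 CPM against 43.9 to 62.1 CPM and reached 2-fold with L6F alone.

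Of the 7 kinetochore genes, 5 were at least 2-fold higher in each stimulated condition. Spc24, a subunit of the Ndc80 complex that holds the microtubule end, had both the most UMIs and the highest ratio. It was at 43.5 CPM in rested cells (31.1 to 59.3), at 210.1, 202 and 204 CPM at 20, 2 and 0.2 pmol M9C, and at 229 and 225 CPM at 80 and 20 pmol L6F, which made 4.83-fold (3.54 to 6.77) at 20 pmol M9C. The other 3 subunits of the same complex gave smaller ratios. Ndc80 was at 18.5 CPM in rested cells against 37.4 to 49.0 CPM. Nuf2 was at 14.1 CPM in rested cells, at 23.8, 22.0 and 20.4 CPM at 20, 2 and 0.2 pmol M9C, and at 25.0 and 22.0 CPM at 80 and 20 pmol L6F, and its interval at 20 pmol M9C (0.971 to 3.20, around 1.69-fold) held equality. Spc25 was at 13.1 CPM against 16.9 to 24.2 CPM, with 1.73-fold (0.973 to 3.38) at 20 pmol M9C. Cenpa, the histone variant that marks the centromere, was at 39.2 CPM against 126 to 134 CPM, the motor Cenpe at 21.8 against 67.0 to 82.9 CPM, and Cenpf, a large protein of the outer kinetochore, at 33.7 against 72.6 to 97.9 CPM.

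Among the 7 genes of the spindle checkpoint and mitotic exit, 6 were at least 2-fold higher at 20 pmol M9C. Ube2c had the most UMIs, at 45.7 CPM in rested cells, 183, 168 and 187 CPM at 20, 2 and 0.2 pmol M9C, and 200.4 and 198 CPM at 80 and 20 pmol L6F, which was 3.99-fold (2.95 to 5.56) at 20 pmol M9C. Cdc20, the activator of the anaphase-promoting complex that the checkpoint holds back, had the highest ratio. It was at 14.1 CPM in rested cells, 77.5, 75.2 and 86.6 CPM at 20, 2 and 0.2 pmol M9C, and 83.9 and 80.8 CPM at 80 and 20 pmol L6F, or 5.48-fold (3.19 to 10.3) at 20 pmol M9C. Bub3, a checkpoint protein, was nearly level: 104 CPM in rested cells, 118, 113 and 117 CPM at 20, 2 and 0.2 pmol M9C, and 127 and 118 CPM at 80 and 20 pmol L6F, or 1.13-fold (0.920 to 1.40) at 20 pmol M9C. Its binding partners were not level. Bub1, a checkpoint kinase, was at 7.62 CPM in rested cells against 29.6 to 37.7 CPM, and Bub1b, the inhibitor of Cdc20 also known as BubR1, at 16.3 against 62.7 to 75.9 CPM. Mad2l1, which locks Cdc20 in the checkpoint complex, was at 16.3 against 32.2 to 35.0 CPM, and Ttk, the kinase that starts checkpoint signalling, at 5.44 against 13.9 to 16.8 CPM. With HTODemux calls Ttk fell short in all 5 conditions (1.47-fold at 20 pmol M9C, 0.802 to 3.01).

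The 9 spindle genes gave 8 that were at least 2-fold higher at 20 pmol M9C and 9 at 80 pmol L6F. Tpx2, which starts microtubule growth around chromosomes, had the most UMIs, with 42.4 CPM in rested cells, 115, 104 and 118 CPM at 20, 2 and 0.2 pmol M9C, and 134 and 132 CPM at 80 and 20 pmol L6F. Its ratio at 20 pmol M9C was 2.70-fold (1.97 to 3.81). Kif2c, a motor that takes microtubule ends apart, had the highest ratio, 3.81-fold (1.99 to 8.38), with 9.79 CPM in rested cells, 37.3, 37.7 and 40.8 CPM at 20, 2 and 0.2 pmol M9C, and 40.8 and 46.0 CPM at 80 and 20 pmol L6F. Nusap1, which bundles spindle microtubules, had the lowest, 1.88-fold (1.26 to 2.92). It was at 27.2 CPM in rested cells, 51.0, 46.4 and 53.6 CPM at 20, 2 and 0.2 pmol M9C, and 76.2 and 65.0 CPM at 80 and 20 pmol L6F, and so it passed 2-fold with L6F and not with M9C. Kif11 was at 21.8 CPM in rested cells against 73.1 to 92.4 CPM, the motor Kif20b at 22.9 against 64.7 to 73.3 CPM, and Kif22, a motor that binds chromosome arms, at 10.9 against 35.6 to 42.2 CPM. Hmmr, a spindle assembly protein, was at 29.4 against 84.9 to 98.5 CPM, and the microtubule proteins Ckap2 and Ckap2l at 7.62 against 19.9 to 23.6 CPM and 12.0 against 23.8 to 31.8 CPM.

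Of the 5 cytokinesis genes, 3 were at least 2-fold higher at 20 pmol M9C. Prc1, which bundles the microtubules of the midzone, had the most UMIs: 44.6 CPM in rested cells, 86.6, 78.8 and 84.3 CPM at 20, 2 and 0.2 pmol M9C, and 108 and 101 CPM at 80 and 20 pmol L6F, or 1.94-fold (1.42 to 2.72) at 20 pmol M9C. Kif20a, the motor that carries the passenger complex to the midzone, had the highest ratio of all 42 members, 6.22-fold, on 4 rested UMIs (2.41 to 23.0). With HTODemux calls it was 2.77-fold (1.52 to 5.60) and no longer the highest. It was at 4.35 CPM in rested cells, 27.1, 25.2 and 27.5 CPM at 20, 2 and 0.2 pmol M9C, and 29.0 and 29.3 CPM at 80 and 20 pmol L6F. Racgap1, a subunit of the centralspindlin complex, stood at 71.8 CPM in rested cells, 83.9, 83.9 and 89.4 CPM at 20, 2 and 0.2 pmol M9C, and 96.5 and 98.0 CPM at 80 and 20 pmol L6F, or 1.17-fold (0.911 to 1.52) at 20 pmol M9C. Its partner in that complex, Kif23, was at 16.3 against 44.6 to 49.1 CPM, and Anln, the scaffold of the contractile ring, at 5.44 against 13.4 to 15.7 CPM.

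The members that fell short at 20 pmol M9C were thus Smc4, Ncapd2, Nuf2, Spc25, Bub3, Nusap1, Prc1 and Racgap1. Smc4, Nuf2, Spc25, Bub3 and Racgap1 fell short in all 5 conditions, Ncapd2, Nusap1 and Prc1 with M9C at each amount, Ckap2l at 2 and 0.2 pmol M9C, and Mad2l1 at 80 pmol L6F. Smc4, Bub3 and Racgap1 did so at rested levels of 71.8 CPM or more. Their log2 ratios at 20 pmol M9C, 0.14, 0.18 and 0.22 by CPM, became −0.10, −0.065 and −0.018 when ribosomal protein, mitochondrial, Malat1 and Gm42418 UMIs were left out of the totals, so no direction holds for them there. With L6F the CPM ratio of Bub3 held equality in its interval, while those of Smc4 (log2 0.29 and 0.28 at 80 and 20 pmol) and Racgap1 (0.43 and 0.45) lay above it. Without the abundant UMIs these became 0.065 and 0.051 for Smc4 and 0.20 and 0.22 for Racgap1, with intervals that held equality. Nuf2 and Spc25 fell short at 13 and 12 rested UMIs.

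Genes of the same processes that are not members moved less as lists. Of 122 such genes in 6 lists, 116 were measured at 20 pmol M9C against rested cells, 56 were at least 2-fold higher and 1 was lower, and the median log2 ratio was 1.00. At 80 pmol L6F 66 of 117 were higher and 0 lower. Other kinetochore and checkpoint genes gave 22 higher of 33 measured at 20 pmol M9C. Their median log2 ratio was 1.44, where the kinetochore members had 1.27 and the checkpoint and exit members 2.00. Their highest ratio was that of Oip5, which helps load the centromeric histone, at 12.0 CPM against 1 rested UMI (11.0-fold, 1.95 to 438), and their lowest that of Zw10, at 23.8 against 25.0 CPM. Other spindle and cytokinesis genes gave 13 of 24, from Cep55, a protein of the last step of abscission, at 23.5 against 3.26 CPM on 3 rested UMIs (7.19-fold, 2.44 to 35.0), to the spindle pole protein Numa1, at 60.6 against 90.3 CPM. Other regulators of mitotic entry gave 4 of 11, from the Cdk-binding subunit Cks1b, at 151 against 42.4 CPM, to the phosphatase inhibitor Ensa, at 35.6 against 46.8 CPM. Cohesin and further condensin genes gave 6 of 18, from the centromere protector Sgo1, at 29.7 against 6.53 CPM, to securin, Pttg1, at 29.3 against 35.9 CPM. The anaphase-promoting complex and its regulators gave 6 of 17, from its inhibitor Fbxo5, at 97.2 against 25.0 CPM, to its subunit Anapc13, at 26.6 against 34.8 CPM. Of transcription factors of the cell cycle 5 of 13 were higher, led by Mybl2, at 55.2 against 4.35 CPM (12.7-fold, 4.93 to 46.7), which acts with the CHR-binding complex in cycling cells, and 1 was lower: Rbl2, the pocket protein of that complex in resting cells, at 8.05 against 21.8 CPM (0.370-fold, 0.228 to 0.631).

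All 26 S phase genes were at least 2-fold higher in each of the 5 stimulated conditions, with a median log2 ratio of 1.86 at 20 pmol M9C. Their range at 20 pmol M9C ran from Pola1, a subunit of the DNA polymerase alpha-primase complex, at 75.5 against 33.7 CPM, to the chromatin remodeller Hells, at 153 against 23.9 CPM. S phase genes together were at 1275 CPM in rested cells against 4384 to 4655 CPM. The members had 1.14 UMIs for each S phase UMI in rested cells, 0.894, 0.853 and 0.887 at 20, 2 and 0.2 pmol M9C, and 0.949 and 0.939 at 80 and 20 pmol L6F. Per S phase UMI, the rested culture thus had the highest value and 2 pmol M9C the lowest. The rested value stands on 1333 member UMIs and 1172 S phase UMIs. Of those member UMIs 59.3% lay in 27 cells, and 24.8% in cells without a CD8 T marker UMI.

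Cell by cell, the rested level came from few cells. As counted, 348 of 755 rested cells (46.1%) had no member UMI, while 27 cells (3.58%) had 10 or more, up to 68, and these 27 held 791 of the 1333 member UMIs (59.3%) against 10.5% of all rested UMIs. They were at 8166 CPM of members, and the other 728 rested cells were at 659 CPM. The 27 are a range of a per-cell sum and no cell type, and the level of 10 was chosen after the distribution was seen. Their median depth was 2982 UMIs. By depth, rested cells under 1000 UMIs were at 686 CPM of members, those of 1000 to 1500 at 596, of 1500 to 2000 at 1173, of 2000 to 3000 at 3434, and the 14 cells of 3000 or more at 7814 CPM. The level was lowest in the 2 classes under 1500 UMIs, which hold most rested cells, and higher in each class above them.

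By cells with 3 or more marker UMIs, some lists of other cells gathered in these 27 cells and the B cell list did not. Of the 27, 16 had 3 or more UMIs of CD8 T cell markers and 9 had none, where 27 of all 755 rested cells (3.58%) had none. At least 3 marker UMIs of erythroid cells were seen in 4 of the 27, of basophils or mast cells in 4, of macrophages or monocytes in 3 and of NK cells in 3. For these lists they were all the rested cells that had so many. Gamma-delta T cell markers reached that level in 3 of the 27 and in 30 of all rested cells. B cell markers reached it in 0 of the 27 and in 4 of all rested cells. The 27 were deeper than rested cells as a whole (median UMIs 2982 against 1056), and the part of depth was not tested. Markers of dendritic cells and platelets were at 0 in rested cells. Rested cells without a CD8 T marker UMI held 331 member UMIs, 24.8% of the total. In rested cells with one, the members were at 1168 CPM in place of 1451 CPM. With CD8 T marker cells alone, a setting added after the data were seen, 37 of 42 members were at least 2-fold higher at 20 pmol M9C. With cells of 3 or more marker UMIs of other than T cells left out, 38 were, and the summed log2 ratio at 20 pmol M9C was 1.85 in place of 1.46. The B cell marker Ighm was not counted there, and 743 rested cells and 1860 cells at 20 pmol M9C remained. With Ighm counted, 385 cells at 20 pmol M9C had 3 or more B cell marker UMIs, so that setting does not leave out all such cells.

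The members differed in how far they rested on those cells. Taking cells with 10 or more UMIs of the other members, the median member had 71.7% of its rested UMIs in them, against a median of 11.2% over 7107 other genes at 10 CPM or more. There 36 of 42 members had 50% or more, and so had 105 of the 7107 other genes. The 36 include members with few rested UMIs, such as Ncapg (4 of 8) and Kif20a (2 of 4). Cenpf had 29 of its 31 rested UMIs there (93.5%) and Anln all 5. At the other end Smc4 had 39 of 177 (22.0%), Bub3 24 of 96 (25.0%), Smc2 16 of 58 (27.6%) and Racgap1 22 of 66 (33.3%). In the remaining rested cells Smc4 was at 168 CPM and Birc5 at 32.7 CPM, where over all cells at 20 pmol M9C they were at 212 and 405 CPM. Those rested cells were selected for few member UMIs and the cells at 20 pmol M9C were not, so the proportions are not of like sets. Smc4, Bub3 and Racgap1, the least dependent on those cells beside Smc2, had ratios near equality at 20 pmol M9C, but Ncapg and Kif20a, with 4 of 8 and 2 of 4 rested UMIs there, had high ones. Across the 42 members, the percent in those cells and the log2 ratio at 20 pmol M9C had a Pearson r of 0.41 and a Spearman rho of 0.22, over genes that share the same cells and depth. All conditions shared 1 lane, so free RNA of stimulated cells can add single UMIs to rested cells, and its part was not tested.

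**Figure D2:**
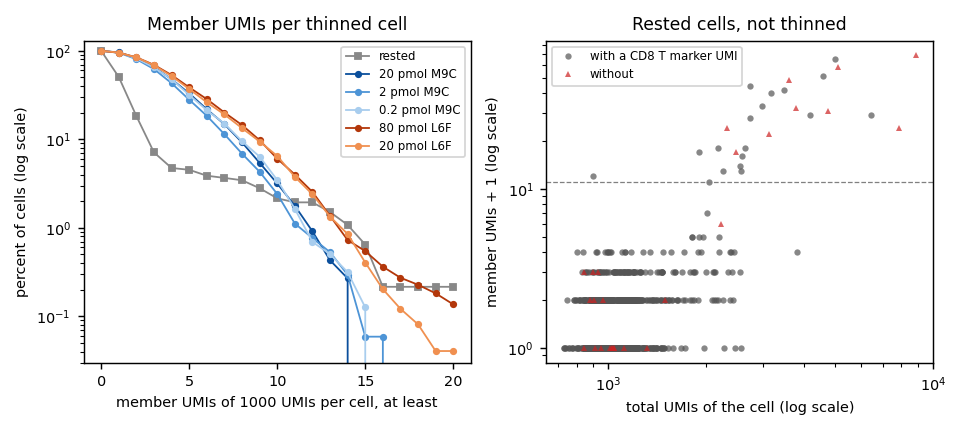
Left, percent of cells (log axis) with at least the given number of member UMIs after each cell was thinned to 1000 UMIs. Right, member UMIs plus 1 against total UMIs for each of the 755 rested cells (log axes), not thinned, with the dashed line at 10 member UMIs and red triangles for the 27 cells without a CD8 T marker UMI. Rested cells are mostly at 0 to 3 member UMIs, with few cells, most of them deep, far above.

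To compare cells at equal depth, each cell was thinned to 1000 UMIs, which left out 291 of 755 rested cells and 3 to 10 cells in each stimulated condition. At 5 or more member UMIs were then 4.53% of rested cells (21 of 464, exact binomial 95% interval 2.82% to 6.84%), 33.0%, 28.0% and 31.8% of cells at 20, 2 and 0.2 pmol M9C, and 38.6% and 37.0% at 80 and 20 pmol L6F. Not thinned, these shares were 3.84% in rested cells and 96.7% to 98.7% in stimulated cells. At 10 or more were 2.16% of rested cells (1.04% to 3.93%), 3.17%, 2.41% and 3.47% of M9C cells in the same order, and 6.05% and 6.49% of L6F cells. At 10 or more the rested interval overlapped those of the 3 M9C conditions (together 1.74% to 4.49%) and lay below those of L6F (5.09% to 7.12% and 5.55% to 7.53%), while at 5 or more it lay below all 5. At 1 or more, 50.6% of thinned rested cells had any member UMI and 95.1% to 95.8% of stimulated ones had. The median thinned cell had 1 member UMI when rested, 3 with M9C at each dose and 4 with L6F at each dose.

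At 3000 UMIs per cell, a depth that 14 rested cells reached and at which rested cells were left out, M9C and L6F stood apart in the upper tail. With 15 or more member UMIs were 26.4%, 21.7% and 25.3% of cells at 20, 2 and 0.2 pmol M9C (95% intervals together 19.7% to 28.6%) and 32.7% and 31.8% at 80 and 20 pmol L6F (29.8% to 34.8%). With 30 or more were 0.914%, 0.751% and 0.600% with M9C in the same order and 2.67% and 2.57% with L6F. The M9C and L6F intervals did not overlap at either level.

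Between stimulated conditions no member differed by 2-fold. At the matched amount of 20 pmol, the members summed were 0.925 times as high with M9C as with L6F (3980 against 4303 CPM). The interval of the ratio lay below equality for 18 of 42 members and above it for none, where over all genes 17.6% lay below and 21% above. The 18 were Ncapd2, Nusap1, Kif11, Kif2c, Ckap2, Cenpf, Prc1, Racgap1, Tpx2, Ckap2l, Mki67, Ccnb2, Smc4, Top2a, Hmmr, Birc5, Ube2c and Spc24. Spindle genes gave 7 of 9 and chromosome structure genes 4 of 6, kinases and cyclins 2 of 8, kinetochore genes 2 of 7, checkpoint and exit genes 1 of 7 and cytokinesis genes 2 of 5. The lowest ratio was that of Ncapd2, 0.760 (0.686 to 0.841), and the next that of Nusap1, 0.785 (0.711 to 0.866). Nuf2 had the highest, 1.08 (0.928 to 1.27). Cdk1 (1.05, 0.950 to 1.16), Ccna2 (1.03, 0.964 to 1.11), Ccnb1 (0.980, 0.921 to 1.04) and Plk1 (1.01, 0.939 to 1.09) were near equality with intervals that held it.

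**Figure D3:**
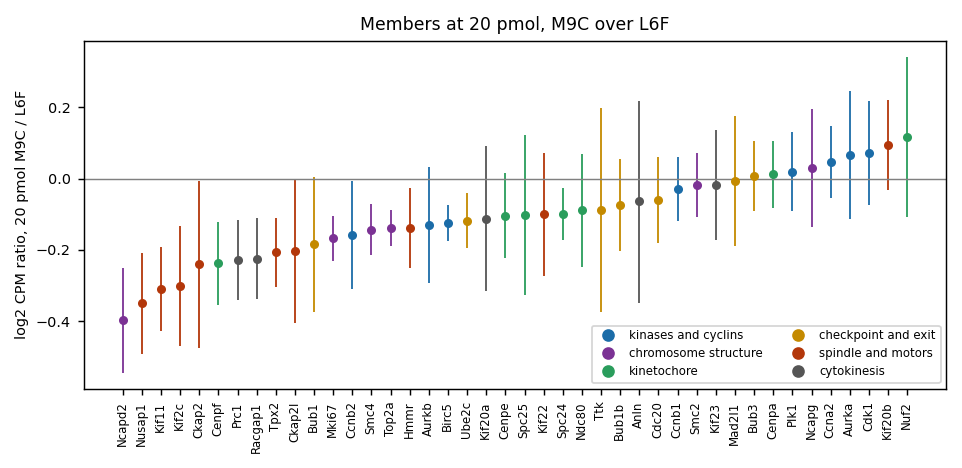
Log2 CPM ratio of 20 pmol M9C over 20 pmol L6F for each member, ordered, with 95% counting intervals and coloured by role. No interval lies wholly above 0, 18 lie below it, and the ratios run from Ncapd2 to Nuf2.

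Over all 5 stimulated conditions, both L6F values lay above all 3 M9C values for 26 of 42 members (61.9%) and for 25.8% of 6503 genes. L6F cells held fewer UMIs (medians 6050 and 6354 against 6943 to 7114 with M9C), so counting per cell raises every log2 ratio of M9C over L6F at 20 pmol by the same 0.096. By CPM the median log2 ratio over the members was −0.10, against 0.02 over all genes, and per cell it was −0.01 against 0.11, so the members lay below all genes by as much on either scale. Their summed log2 ratio was −0.11 by CPM, −0.02 per cell and −0.14 with cells thinned to 1000 UMIs. The members were thus a larger share of the RNA in L6F cells and about as many molecules per cell. Gamma-delta T cell markers also moved with the peptide, with 3 or more UMIs in 2.71% to 3.11% of M9C cells and 6.25% and 6.14% of L6F cells, and their part in the difference was not tested. Macrophage or monocyte markers were at 2.79, 2.67 and 11.3 CPM at 20, 2 and 0.2 pmol M9C and at 26.2 and 16.7 CPM at 80 and 20 pmol L6F. With cells of 3 or more non-T marker UMIs (Ighm not counted) left out, the summed log2 ratio of M9C over L6F at 20 pmol was −0.12.

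The summed level did not rise steadily with the amount of M9C, and L6F had only 2 amounts. Along M9C the sum was lowest in the middle. At 20 pmol it was 1.06 times that at 2 pmol (1.05 to 1.08). At 2 pmol it was 0.951 times that at 0.2 pmol (0.939 to 0.964), and at 20 pmol 1.01 times that at 0.2 pmol (1.0001 to 1.026). From 2 to 20 pmol, intervals lay above equality for 12 members and below for none (6.71% above and 4.25% below over all genes), with Spc25 the highest at 1.33 (1.11 to 1.60) and Ttk the lowest at 0.865 (0.702 to 1.07). From 0.2 to 2 pmol, intervals lay below for 9 and above for none (5.28% above and 7.81% below over all genes), with Nuf2 the highest at 1.08 (0.902 to 1.29) and Spc25 the lowest at 0.831 (0.685 to 1.01). Between the ends, 20 against 0.2 pmol, 5 members lay above (Top2a, Mki67, Cenpe, Ndc80 and Kif20b) and 2 below (Cdc20 and Hmmr), near the 8.43% and 8.27% over all genes. Ndc80 was the highest at 1.20 (1.06 to 1.36) and Ttk the lowest at 0.891 (0.720 to 1.10). For L6F, 80 pmol was 1.03 times 20 pmol in the sum. There 4 members lay above (Ccnb2, Mki67, Bub3 and Nusap1) and 1 below (Kif2c), where over all genes 6.87% lay above and 8.02% below. Nusap1 was the highest at 1.17 (1.08 to 1.28) and Kif2c the lowest at 0.887 (0.793 to 0.991). With 1 culture for each amount, neither the dip at 2 pmol M9C nor the step between the L6F amounts can be told apart from culture-to-culture variation. Erythroid markers also stood apart in the 2 pmol M9C culture, at 41.7 CPM against 7.82 and 3.78 CPM at 20 and 0.2 pmol M9C. With cells of 3 or more non-T marker UMIs (Ighm not counted) left out, the summed log2 ratio was 0.093 for 20 over 2 pmol and −0.076 for 2 over 0.2 pmol, against 0.091 and −0.072 with them.

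Within the stimulated cultures, members differed in how strongly they gathered in the same cells. Cells thinned to 3000 UMIs were ranked by the sum of the other members, and the share of a gene's UMIs in the top 10% of cells was taken, so that a gene spread evenly would have 10%. The median over the members, as a mean of the 5 stimulated conditions, was 17.8%, over 6461 other genes at 10 CPM or more it was 10.2%, over S phase genes 8.38% and over the other mitosis genes listed 11.6%. The highest were Nusap1 (29.5%), Cenpf (29.1%), Ube2c (25.9%), Plk1 (25.3%) and Ckap2l (25.3%), and the lowest Ncapd2 (11.1%), Spc24 (11.9%), Mad2l1 (12.2%), Ccnb2 (12.7%), Smc2 (12.7%) and Birc5 (12.8%). By group the spindle genes had the highest median (21.5%) and chromosome structure genes the lowest (15.5%). The top cells were somewhat deeper before thinning, with medians of 6718 to 8268 UMIs against 6311 to 7247 in the others. Concentrated members had low and high ratios to rested cells at 20 pmol M9C, from Nusap1 (1.88) and Cenpf (2.34) to Ube2c (3.99) and Plk1 (5.03), and so had evenly spread ones, from Ncapd2 (1.55) to Birc5 (4.49) and Spc24 (4.83).

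**Figure D4:**
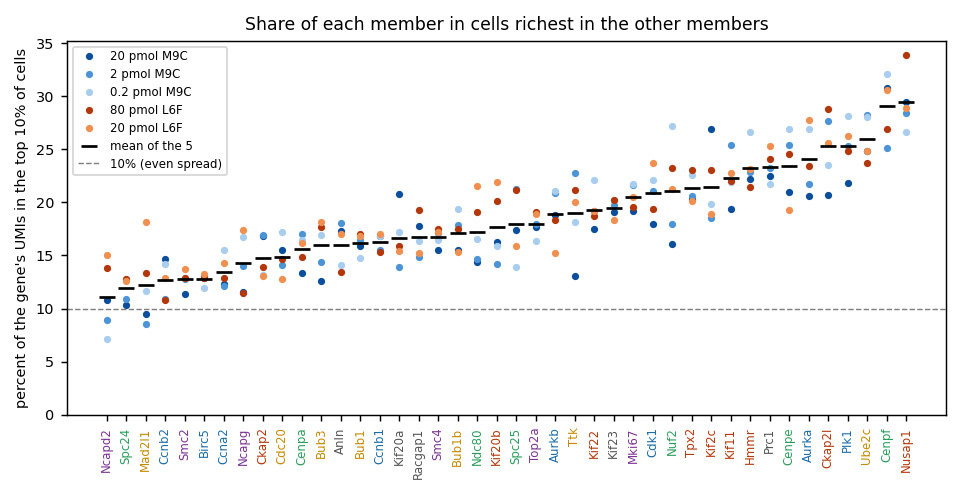
Percent of each member's UMIs that lie in the 10% of cells with the highest sum of the other members, per stimulated condition (points) and as their mean (black bars), after thinning to 3000 UMIs. The dashed line is an even spread; means run from 11.1% for Ncapd2 to 29.5% for Nusap1, and conditions scatter around each mean.

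The 10 genes outside the list with the highest shares by this measure were Aspm (27.9%), Ccnf (25.4%), Kpna2 (25.1%), Ect2 (24.3%), Sgo2a (23.1%), Kif14 (23.1%), Cdc25b (23.0%), G2e3 (22.9%), Sapcd2 (22.5%) and Arl6ip1 (22.0%), over the same 5 conditions. Ect2, Sgo2a, Kif14 and Cdc25b were in the lists of other mitosis genes, and the rest were in none of the lists. Across the 42 members, the spread and the log2 ratio of L6F over M9C at 20 pmol had a Pearson r of 0.20 and a Spearman rho of 0.20, over genes that share the same cells and depth.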

How the data were processed

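The deposited matrix held UMI counts per gene and counts per hashtag for 13439 cell barcodes, which the authors made, per the submitters' processing notes, with bcl2fastq and Cell Ranger 6.0.1 and the build GRCm38 (mm10). How cells were told from empty droplets is not given in the sources used here, and the lowest UMI total was 500.0. A deposited text ties each hashtag number to its condition.

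A barcode was called for its top hashtag where that had 20 or more counts and 80% or more of the hashtag counts (11671 barcodes). Cells with 500 or more genes and at most 10% mitochondrial UMIs were kept (10600). Barcodes with mixed hashtags were left out as multiplets and no other doublet caller was run: among random pairs of called barcodes, before the filters on genes and mitochondrial UMIs, 17.2% are of 1 condition, which hashtags cannot show.

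UMIs were summed per condition. CPM have exact Poisson, ratios exact Clopper-Pearson and shares of cells exact binomial 95% intervals, all for counting error only, and a count of 0 allows up to 3 counts (3.26 CPM in rested cells, 0.187 to 0.264 CPM in stimulated cells). Total UMIs were 918920 in rested cells and 11376897 to 16014100 in the stimulated conditions. A gene entered a comparison when 1 of its conditions had at least 10 CPM. Cells were thinned without replacement. The calls and intervals were tested on simulated counts, and thinning on measured cells. The simulated counts were independent Poisson counts per gene and condition, the error that the intervals assume. They therefore do not test how the intervals behave where a few cells hold most UMIs, as in rested cells. Tools were Python 3.11.15, numpy 2.4.6, scipy 1.17.1 and, for HTODemux at quantile 0.99, Seurat 5.3.0 in R 4.3.3.

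The members, the lists of other mitosis and S phase genes and the cell type markers were chosen with earlier results of these data known. Values in every condition are given, per role group, for the member with the most UMIs and those with the highest and lowest ratio of 20 pmol M9C to rested cells, and for the members at either end of each comparison between stimulated conditions. From the other lists the highest and lowest genes are named, and by spread over cells the 10 highest non-members. Other members are given by their range. The description of single rested cells, and its split by CD8 T markers, was added after the data were seen. Promoter sequences are RefSeq's (GRCm38.p6).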

Additional observations from a re-analysis of the deposited data

How the results depend on the processing

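Values below are in the order 20, 2 and 0.2 pmol M9C, 80 and 20 pmol L6F. With 1000 or more genes (47 rested cells), members at least 2-fold higher than rested numbered 0, 0, 0, 0 and 0, members at least 2-fold lower 8, 9, 8, 2 and 5, the summed log2 ratios were −0.52, −0.61, −0.54, −0.37 and −0.40 and the medians −0.55, −0.63, −0.61, −0.43 and −0.48. At 20 pmol M9C 36 of 42 members then had ratios below equality, among them these named members whose main interval lay above it, with their log2 ratios: Ccnb2 −1.02, Birc5 −0.16, Top2a −0.69, Ncapd2 −1.13, Ndc80 −0.47, Spc24 −0.11, Ttk −1.30, Ube2c −0.36, Tpx2 −0.90, Kif2c −0.57, Nusap1 −1.35 and Prc1 −1.30. With the top hashtag at 50 counts and 95% (19 rested cells), members higher numbered 0, 0, 0, 0 and 0, summed log2 ratios were −0.064, −0.17, −0.064, 0.10 and 0.051 and medians −0.31, −0.40, −0.25, −0.11 and −0.14. At 20 pmol M9C 25 of 42 were below equality, among them Top2a −0.10, Ncapd2 −0.64, Ncapg −0.19, Ndc80 −0.72, Ttk −1.79, Tpx2 −0.90, Kif2c −0.95, Nusap1 −1.48, Prc1 −0.73 and Kif20a −1.42. With 50 CPM required, fewer genes are tested, and members higher numbered 19, 19, 19, 23 and 23. Apart from UMIs per cell, no alternative setting was also counted over all genes, so these member counts have no background share beside them.

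Between stimulated conditions, the main summed log2 ratios were 0.091 (20 over 2 pmol M9C), −0.072 (2 over 0.2), 0.018 (20 over 0.2), 0.039 (80 over 20 pmol L6F) and −0.11 (M9C over L6F at 20 pmol). As UMIs per cell they were 0.065, −0.10, −0.033, −0.011 and −0.016. Thinned to 1000 UMIs, the first, second and last were 0.11, −0.10 and −0.14. With the stricter hashtag rule 2 over 0.2 pmol was −0.10 and 20 over 0.2 pmol 4.5e-05. Without Top2a and Mki67, 20 over 0.2 pmol was −0.00020. Why these values moved was not tested.

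Under HTODemux, 200 or more genes, no low filter, a 1.5-fold call, median-of-ratios scaling, CPM without ribosomal, mitochondrial, Malat1 and Gm42418 UMIs, thinning, leaving out very deep cells or cells with non-T markers, and CD8 T marker cells alone (added after the data were seen), members called higher stayed within 1.5 times the main counts, from 25 to 39, and per cell all 42 were. At 20 pmol M9C, 7 members lost the call under HTODemux (Cdk1, Ccnb2, Smc2, Cenpf, Ttk, Ckap2 and Ckap2l), 7 in CPM without the abundant UMIs (Ccnb2, Smc2, Cenpf, Ttk, Mad2l1, Ckap2l and Anln) and 2 on thinning (Ckap2l and Anln). Ratios there rose by over 1.5 times for 8 members with 200 or more genes, 11 on thinning, 11 in CD8 T marker cells, 18 without non-T marker cells and 30 without very deep cells. The B cell marker Ighm was not counted among the non-T markers. CPM without ribosomal and the other abundant UMIs lowers every ratio to rested cells at 20 pmol M9C by the same log2 −0.24. Leaving out replicates was not possible with 1 culture per condition. No paired analysis was possible because each condition was 1 culture. Depth limits the rested values of single members: 9 of the 42 had fewer than 10 rested UMIs.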
